A study of Mus musculus with 6 samples.

Results

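Aerocytes are capillary endothelial cells of the lung alveolus, and 79 of them were found among 2320 endothelial cells and 44096 cells in all. A barcode was kept as a cell if it had at least 500 genes, at least 1000 unique molecular identifiers (UMIs, each counted once per captured transcript) and less than 15% mitochondrial UMIs. An endothelial cell had at least 1 UMI of 3 or more of Pecam1, Cdh5, Cldn5 and Egfl7, and no UMI of Ptprc (leukocytes), Lamp3 (type 2 alveolar epithelial cells, AEC2s), Col1a2 (fibroblasts) or Foxj1 (ciliated cells). An aerocyte was an endothelial cell with at least 1 UMI of both Car4 and Ednrb, fewer than 3 UMIs of Vwf and none of Prox1, the master gene of lymphatic endothelium. The remaining 2241 endothelial cells are called the other endothelial cells. They held 1388 cells with 3 or more Vwf UMIs, a sign of larger vessels, and 479 cells with Prox1.

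The cells came from single-cell RNA sequencing (10x Genomics, 3′ chemistry) of CD45- lung cells, enriched with magnetic beads. The mice were on a C57BL/6J background and 10 to 12 weeks of age. There were 4 control libraries from littermates and 2 libraries labelled Zip8 knockout, and all were made 2 weeks after 4 doses of tamoxifen. The mice of the latter group were SFTPC-CreER Rosa26-tdTomato mice with floxed Slc39a8, the gene of the zinc importer ZIP8. The Sftpc promoter drives the Cre in AEC2s, so that endothelial cells are not its target. The alleles that the littermates carried and the number of mice behind a library were not given in the sources used here, and the p-values below measure the spread between these libraries. Libraries held 105774150, 114018446, 118771907 and 93852253 UMIs in controls 1 to 4, and 107957330 and 103337822 UMIs in the libraries labelled Zip8 knockout 1 and 2.

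The capillary bed of the alveolus is built from aerocytes and general capillary cells. Aerocytes are large, thin cells that lie against type 1 alveolar epithelial cells (AEC1s) and serve gas exchange, whereas general capillary cells regulate vessel tone and divide to renew the bed. Aerocytes carry carbonic anhydrase 4, an enzyme on the cell surface that interconverts carbon dioxide and bicarbonate, and the endothelin receptor type B. They also make apelin, whose receptor is found on general capillary cells, and they depend on the growth factor VEGFA from AEC1s.

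Aerocytes numbered 12, 7, 7 and 20 in controls 1 to 4 and 26 and 7 in the libraries labelled Zip8 knockout. Their UMIs summed to 56224, 33401, 32153, 73930, 86573 and 24083 in the same order, so that 1 UMI was worth 11.6 to 41.5 CPM (UMIs scaled to a total of 1000000 over the summed cells). The median aerocyte had 3411 UMIs (range, 1024 to 14303) and the median other endothelial cell had 3434. No aerocyte was among the likely doublets, which were 22 of the 2320 endothelial cells and 5427 of the 44096 cells in all. The aerocytes with AEC1 or lymphatic markers described below were not called either, so the count of 0 does not exclude doublets. A single aerocyte (1 of 79) shared its barcode sequence with a cell of another library.

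The genes that chose the cells are given as a description only. Car4 (chr11:84957786-84966044 of mm10, plus strand) had 2 to 57 UMIs per aerocyte (median, 15), at 4500, 4162, 4261 and 4112 CPM in the controls, and 4066 and 4360 CPM in the libraries labelled Zip8 knockout. Ednrb (chr14:103814625-103844402, minus strand) had 1 to 23 UMIs per aerocyte (median, 7), at 1583, 2036, 1897 and 2178 CPM in the controls, and 1802 and 3613 CPM in the others. Cldn5, the main claudin of endothelial tight junctions, was at 9277 ± 1381 CPM (SD, n = 6) in aerocytes and at 2471 ± 370 CPM in the other endothelial cells. Cdh5 was at 2137 ± 248 CPM in aerocytes and 747 ± 59.1 CPM in the others. Vwf was found as 1 UMI in 1 aerocyte.

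Cells just inside and just outside of the rule differed in genes that the rule did not name, which is likewise a description. The 74 aerocytes with at least 2 UMIs of both markers had 438 CPM of Apln and 1969 CPM of Fibin when pooled, and the 5 aerocytes with 1 Ednrb UMI had 128 and 598 CPM. A pair of these 5 cells, described below, carried AEC1 or lymphatic markers and held most of the UMIs, and the other 3 had 413 CPM of Apln (3 UMIs) and 1239 CPM of Fibin (9 UMIs). The 37 endothelial cells that passed the Vwf and Prox1 limits with Car4 and no Ednrb had 31.5 CPM of Apln and 1649 CPM of Gpihbp1, a gene of general capillary cells. The 36 such cells with Ednrb and no Car4 had no UMI of Apln or Fibin. A single cell had both markers and was left out for its 45 Vwf UMIs.

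Other markers of the cell type were counted as well. Their list was chosen with earlier results of these data known, so it describes the cells and is no independent check of the name. Of 19 aerocyte genes outside of the rule, the median aerocyte had at least 1 UMI of 17 (range, 4 to 19), and the median other endothelial cell of 4. After each cell was thinned to 1000 UMIs, the medians were 13 and 2. At least 10 of the 19 genes were found in 78 of 79 aerocytes and in 20 of the 2241 other endothelial cells, 5 of which had Car4 and no Ednrb. Of 13 general capillary genes, the median aerocyte had 2.

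**Figure D1:**
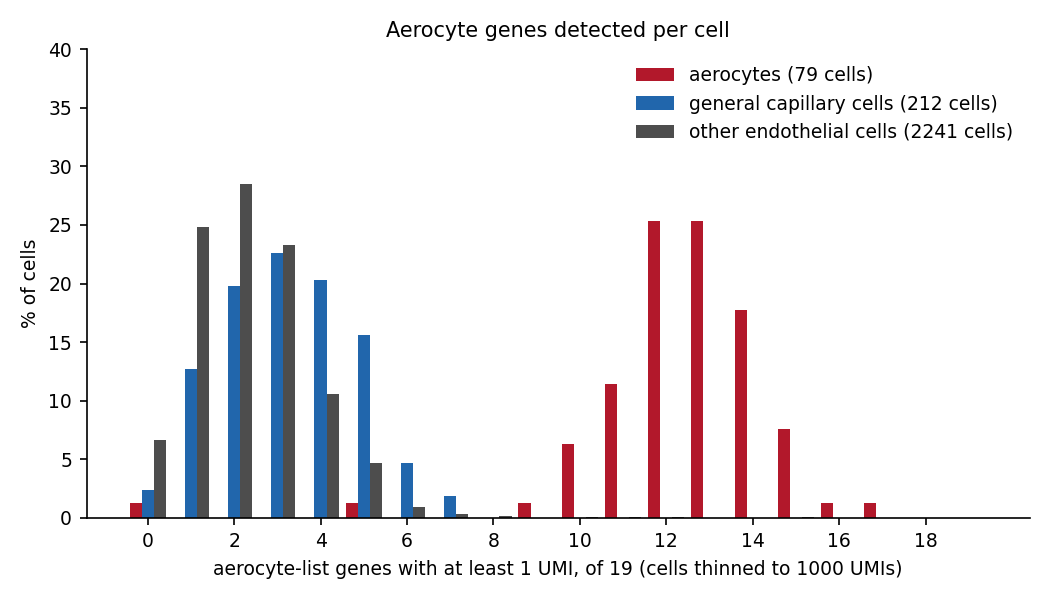
Number of the 19 aerocyte genes with at least 1 UMI in each cell (x axis) against the percent of cells (y axis), after every cell was thinned to 1000 UMIs, for aerocytes (79 cells), other endothelial cells (2241) and general capillary comparison cells (212). Aerocytes center on 13 genes and the other classes on 2 and 3.

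A set of 3 cells, all from controls, stood apart, and the gene lists and comparisons that moved most with them are given with and without them. They were singled out after their values were seen. A cell of control 1 with 14303 UMIs, 4 of Car4 and 1 of Ednrb, had 507 UMIs of AEC1 markers, 297 of them from Ager, the gene of the AEC1 surface receptor RAGE. It had no Apln UMI. A cell of control 4 with 1845 UMIs, 2 of Car4 and 1 of Ednrb, had 88 UMIs of lymphatic markers, of which 72 were Ccl21a. These markers were Ager, Rtkn2, Akap5, Aqp5, Cldn18, Col4a3 and Spock2 for AEC1s and Ccl21a, Mmrn1, Reln and Fgl2 for lymphatic cells. The remaining 77 aerocytes had at most 1 UMI of either set. Another cell of control 4, with 17 of the 19 aerocyte genes, had 288 UMIs of interferon response genes, or 5.18% of its UMIs, where the median aerocyte had 0.169%. Its Cxcl10 UMIs numbered 115 and its Rsad2 UMIs 41.

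RNA of other cells in the droplets was read from marker lists. Scgb1a1, the secretoglobin of club cells, was at 10086 ± 3211 CPM (SD, n = 6) in aerocytes and at 26287 ± 18183 CPM in the other endothelial cells, and it was found in every aerocyte. The 9 airway markers summed to 9640, 7365, 12752 and 6939 CPM in aerocytes of the controls and to 15259 and 12208 CPM in those labelled Zip8 knockout. The 10 AEC2 markers, led by Sftpc, summed to 1287 to 3801 CPM in aerocytes and to 1248 to 5126 CPM in the other endothelial cells. Of 12 leukocyte markers, 11 had no UMI in aerocytes, Cd68, Tyrobp and Cd3e among them, and Lyz2 made up the rest. All 5 mesothelium markers and 8 of 10 pericyte and smooth muscle markers, among them Pdgfrb, Cspg4 and Acta2, had no UMI. Of 11 fibroblast markers, Lum and Tcf21 had none and Gsn was the most abundant. The summed level of this list was 690.0 ± 399.7 CPM in aerocytes and 3768 ± 1104 CPM in the other endothelial cells. Hbb-bs led the erythroid and platelet markers, which summed to 378.7 CPM in aerocytes of control 4 and to at most 120 CPM in those of the other libraries. In the other endothelial cells they summed to 12653 CPM in control 4, 1201 CPM in control 2 and at most 37.1 CPM in the remaining libraries. The part of this RNA in the results below was not tested.

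To determine what sets aerocytes apart, UMIs were summed per library over aerocytes and over other endothelial cells, and the 12 sums were compared with edgeR's quasi-likelihood test with the library as a block. The cells were chosen by 12 genes read in the same cells, and those genes were left out. Genes that go with Car4, Ednrb, Vwf or Prox1 had to differ, so the adjusted p-values describe how well a difference repeated over 6 libraries. Of 6773 genes tested, 1870 (27.6%) passed an adjusted p of 0.05 (Benjamini-Hochberg), 582 (8.59%) higher and 1288 (19%) lower in aerocytes. The shares higher and lower are the background for all counts of list genes in this comparison. The median gene was at a log2 fold change of −0.27 after TMM normalization (trimmed means of M values) and at 0.0073 after scaling to total UMIs, and with the latter 866 genes were higher and 956 lower.

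All 19 aerocyte genes were higher in aerocytes, with a median log2 fold change of 4.33. Apelin (Apln), the peptide hormone that aerocytes send to general capillary cells, had the highest fold change of the genes selected. Its level was 445, 269, 280 and 311 CPM in aerocytes of the controls and 589 and 415 CPM in those labelled Zip8 knockout. It was at most 1.1 CPM in the other endothelial cells, where 6 UMIs were counted in all. Every library of aerocytes was above every library of other endothelial cells. The log2 fold change was 8.64 (standard error, SE, 0.41; edgeR adjusted p = 2.85e-97). Apln was found in 49 of 79 aerocytes (62.0%), and by library in 3 of 7 to 6 of 7. At 1000 UMIs per cell, it was found in 26.6% of aerocytes against 0.229% of fibroblasts and 0.0428% of AEC2s. The exact 95% confidence interval for aerocytes, 17.3 to 37.7%, pools the cells of all libraries and covers counting error only.

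Apln lies at chrX:48025146-48034853 of mm10 on the minus strand. The sequences upstream of the start sites of Apln, Nrp1 and Chst1 are printed because these aerocyte genes rose and each holds 1 match to an ETS core (AGGAAG, or CTTCCT on the other strand), the letters bound by ETS factors such as ERG that act in endothelial genes. They are the 250 bases before the RefSeq start, 5′ to 3′ on the strand of the gene, from GRCm38.p6, and the match is in capitals.
Apln (chrX:48034854-48035103, minus strand): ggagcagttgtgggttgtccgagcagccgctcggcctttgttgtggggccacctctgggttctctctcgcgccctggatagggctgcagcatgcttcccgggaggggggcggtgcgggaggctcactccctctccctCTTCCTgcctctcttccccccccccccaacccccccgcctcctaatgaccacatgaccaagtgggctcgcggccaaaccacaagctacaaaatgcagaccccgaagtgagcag
Nrp1 (chr8:128358823-128359072, plus strand): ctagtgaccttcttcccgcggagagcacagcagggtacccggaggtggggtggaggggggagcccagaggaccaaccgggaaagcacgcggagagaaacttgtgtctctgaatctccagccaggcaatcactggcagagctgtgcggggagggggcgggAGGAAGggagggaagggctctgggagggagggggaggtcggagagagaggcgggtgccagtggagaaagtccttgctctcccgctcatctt
Chst1 (chr2:92600867-92601116, plus strand): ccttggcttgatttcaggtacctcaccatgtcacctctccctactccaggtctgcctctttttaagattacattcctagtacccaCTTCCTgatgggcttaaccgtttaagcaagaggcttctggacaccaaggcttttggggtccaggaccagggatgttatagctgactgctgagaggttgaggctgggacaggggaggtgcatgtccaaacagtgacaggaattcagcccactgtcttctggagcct
Of 21 genes (the 19 aerocyte genes, Car4 and Ednrb), 15 had a sequence in the RefSeq table. The ETS core was in 4 of these (Hpgd was the fourth) and in 29.5% of all 32817 sequences of the same length. A T-box core (AGGTGT, or ACACCT on the other strand) was in none of the 15 and in 11.8% of all sequences. A match is a description of letters and not of a bound site.

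Fibin, which encodes a secreted factor of limb buds, was at 1868, 1736, 1742 and 1393 CPM in aerocytes of the controls, and 1744 and 4069 CPM in those labelled Zip8 knockout. The other endothelial cells had 0.789 to 13.2 CPM. The log2 fold change was 8.09 (SE 0.23, edgeR adjusted p = 4.42e-261). The second library labelled Zip8 knockout was above the other 5. Fibin was found in 73 of 79 aerocytes (92.4%) and in 22 of 2241 other endothelial cells.

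The T-box genes Tbx2 and Tbx3 encode transcription factors that act in lung and vessel development. Tbx2 was at 551, 958, 684 and 663 CPM in aerocytes of the controls, and 774 and 830 CPM in the others, and at 1.0 to 6.21 CPM in the other endothelial cells. Its log2 fold change was 6.98 (SE 0.26), whereas that of Tbx3 was 3.83 (0.20). Tbx3 had a higher level than Tbx2 in the other endothelial cells, with a mean of 54.1 ± 8.34 CPM (SD, n = 6), and 940 ± 214 CPM in aerocytes.

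Igfbp7, which binds insulin-like growth factors and is deposited in vessel walls, was at 8093, 8593, 9455 and 7926 CPM in aerocytes of the controls, and 7624 and 9841 CPM in those labelled Zip8 knockout. The other endothelial cells had 110.0 to 197 CPM, and the log2 fold change was 5.69 (SE 0.18). At 1000 UMIs per cell, Igfbp7 was found in 98.7% of aerocytes, 10.9% of other endothelial cells, 82.0% of fibroblasts and 19.1% of AEC2s. Emp2, a tetraspan membrane protein of thin lung cells, was at 6303 ± 1026 CPM (SD, n = 6) in aerocytes and at 86.4 ± 13.1 CPM in the other endothelial cells, with a log2 fold change of 5.88 (SE 0.18). Emp2 was found at 1000 UMIs in 98.7% of aerocytes, 6.43% of other endothelial cells, 16.0% of fibroblasts and 24.3% of AEC2s. Both levels were above those of every library of other endothelial cells.

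Of the remaining aerocyte genes, Chst1, a sulfotransferase of keratan sulfate, had a log2 fold change of 5.50. Prx, which encodes the scaffold protein periaxin, was at 5.32, with 534 to 789 CPM in aerocytes, and Pmp22, a relative of Emp2, at 3.98. Kitl, the ligand of the receptor KIT, had a log2 fold change of 4.33 and a level of 1561 ± 102 CPM (SD, n = 6) against 64.5 ± 15.5 CPM. Its receptor gene Kit had no UMI in aerocytes. Cyp4b1, a cytochrome P450 of lung, had 3.40, Ptp4a3, a phosphatase, 4.41 and Sept4, a septin, 3.51. The smallest fold changes of the list were those of Hpgd, which degrades prostaglandins (0.86), Clu (1.18) and Sirpa, a receptor of CD47 (1.36). The call of Sirpa was lost without the first library labelled Zip8 knockout, at 0.97 (edgeR adjusted p = 0.0793).

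**Figure D2:**
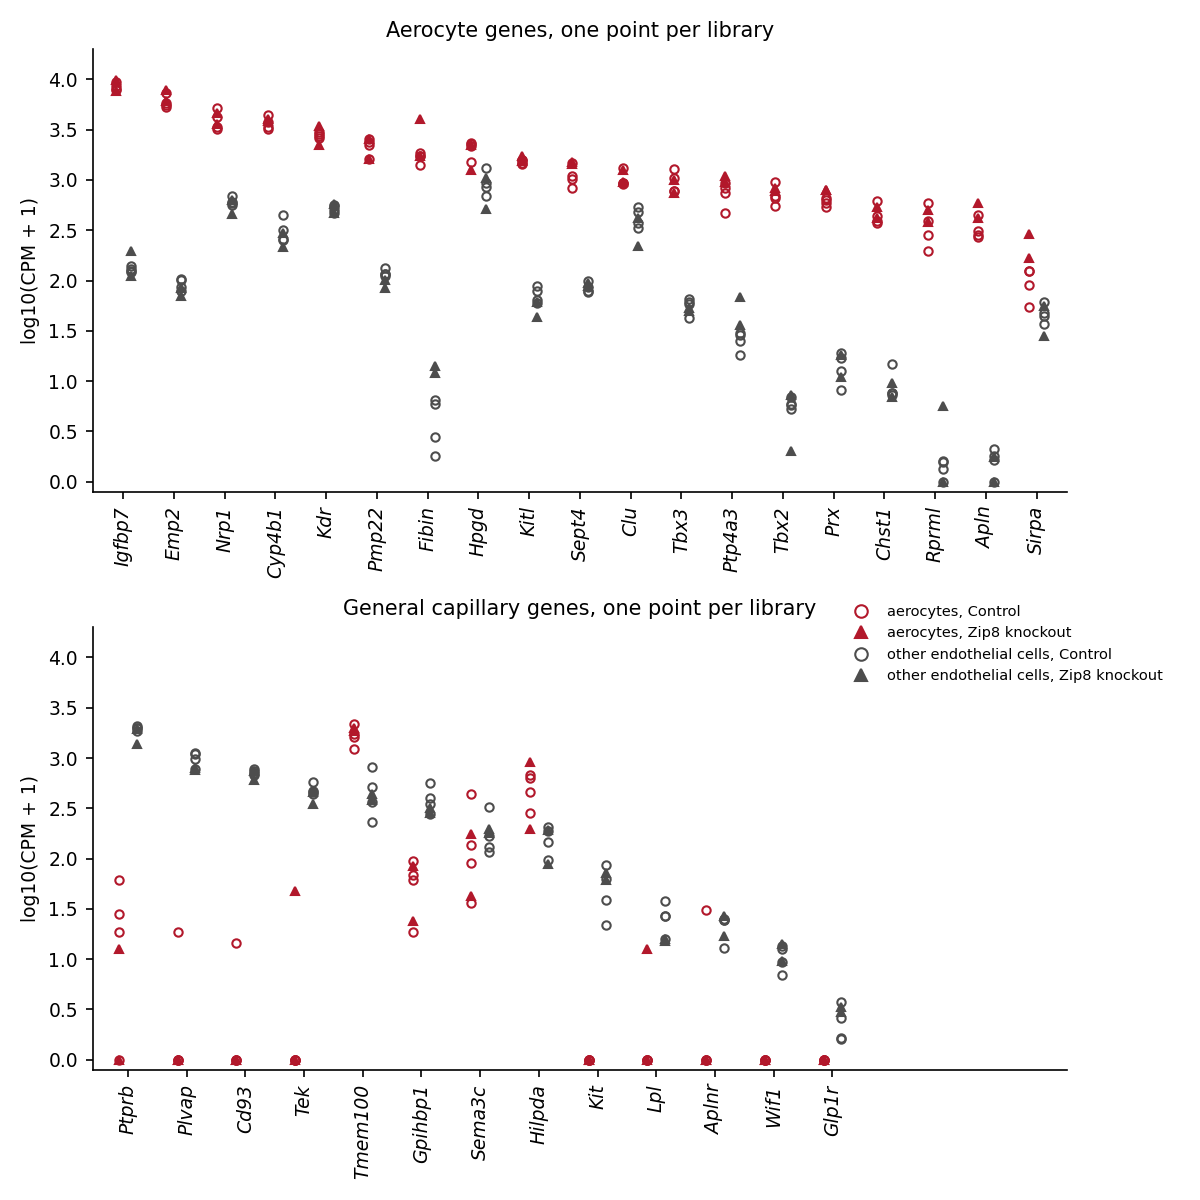
Level of each aerocyte gene (upper panel) and general capillary gene (lower panel) as log10 of CPM + 1 (y axis), with 1 point per library for aerocytes (red) and for the other endothelial cells (gray), and with circles for controls and triangles for libraries labelled Zip8 knockout. Apln, Fibin and Igfbp7 lie higher in aerocytes in every library, and Plvap, Cd93 and Ptprb lie lower in every library.

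Of the genes with the highest fold changes, 5 were not on the list of aerocyte genes, and they were selected by their size of change and the same direction in all 6 libraries (25.6% of the genes tested had 1 direction throughout). Lmntd1, a gene with a lamin tail domain, had 32 UMIs in aerocytes and 1 in the other endothelial cells, so that its fitted log2 fold change of 8.50 rests on few UMIs. The same holds for Il1a, which encodes interleukin 1 alpha, at 7.75, and for Ms4a8a at 7.60. The log2 fold changes were 7.17 for Ccdc184 and 7.17 for Cdkn2b, an inhibitor of the cell cycle kinases CDK4 and CDK6. Cdkn2b was at 356, 359, 187 and 284 CPM in aerocytes of the controls, and 300.3 and 291 CPM in the others, against at most 3.88 CPM in other endothelial cells. The list gene Rprml, a relative of the cell cycle gene reprimo, was at 390.0 ± 144 CPM (SD, n = 6) with a log2 fold change of 8.21.

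The genes with the lowest fold changes had no UMI in the 79 aerocytes. Their folds are lower bounds, taken against 3 UMIs over all aerocytes (9.79 CPM). Prss23, a secreted protease, was at 1137 ± 195 CPM (SD, n = 6) in other endothelial cells and at least 115-fold lower in aerocytes. Cpe, which trims peptide hormones and is high in veins, was at least 66.3-fold lower. Fabp4, the fatty acid binding protein of small vessels, was at least 48.1-fold lower and Plac8 at least 35.9-fold lower. Edn1, the gene of endothelin 1, which is the ligand of EDNRB, was at least 36.0-fold lower. Cxcl12, Hmcn1 and Adgrg6 were at least 27.2-fold, 28.3-fold and 29.3-fold lower.

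The apelin and endothelin pathways link the capillary cells. Of 9 genes in these pathways, 3 were tested, of which Apln was higher and Edn1 and Ece1 lower. Ece1, the enzyme that makes endothelin, was at 462, 329, 840 and 352 CPM in aerocytes of the controls, and 462 and 332 CPM in those labelled Zip8 knockout. It was at 568 to 811 CPM in the other endothelial cells, and the log2 fold change was −0.97 (SE 0.19). Control 3 lay above the range of the other endothelial cells, against the direction of the call, and the other 5 libraries lay below it. Aplnr, the apelin receptor, had 1 UMI in aerocytes.

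General capillary genes were lower in aerocytes for 7 of the 9 tested, and the median of the 9 was a log2 fold change of −3.19 with Kit, which was at 0, set to its bound. Plvap, which forms the diaphragms of endothelial pores, had 1 UMI in aerocytes and was at 917 ± 165 CPM (SD, n = 6) in other endothelial cells. Cd93 had 1 UMI as well and was at 707 ± 64.2 CPM in the others. Ptprb, the phosphatase that restrains the receptor TIE2, was at 17.8, 59.9, 0 and 27.1 CPM in aerocytes of the controls, and 11.6 and 0 CPM in the others. The other endothelial cells had 1367 to 2069 CPM, a log2 fold change of −6.79 (SE 0.31). Gpihbp1, the anchor of lipoprotein lipase on capillaries, was lower at −3.19 (SE 0.32), with 15 UMIs in aerocytes. Sema3c was called at −0.67 (edgeR adjusted p = 0.0428) but lost its call in 14 of 20 alternatives, among them the fits without control 1 (−0.40), control 2 (−0.58), control 4 (−0.41) and either library labelled Zip8 knockout (−0.77 and −0.49). Hilpda, a lipid droplet protein, and Tmem100, a target of BMP signaling, were higher at 1.38 and 1.72.

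The other endothelial cells were a mixture, so aerocytes were also compared with 212 endothelial cells that had Gpihbp1, no Car4, Ednrb or Prox1 and fewer than 3 Vwf UMIs. These general capillary comparison cells had a median of 1783 UMIs and a median of 8 of the 13 general capillary genes. Gpihbp1, which chose these cells, is among the 13. Their pooled Ccl21a level was 7961 CPM, and 31 of the 212 had 5 or more of the 8 lymphatic genes, against 1 of 79 aerocytes, so that the class was not made of general capillary cells alone. Of 889 genes tested, 196 (22%) were higher and 247 (27.8%) lower in aerocytes. These shares are the background for all counts of list genes against these cells. Of 18 aerocyte genes tested, 17 were higher, and Hpgd was at 0.08 (edgeR adjusted p = 0.752). Emp2 had a log2 fold change of 7.62 (SE 0.30) and Clu of 2.53, both above their values against all other endothelial cells. Hpgd was below its value there. In unthinned cells, Cyp4b1 was found in 69.3% of the general capillary comparison cells and 51.2% of the other endothelial cells. Tbx3 was found in 26.9% and 16.5%, and Prx in 13.2% and 3.97%. Emp2 went the other way, among others, at 4.72% and 21.4%. Over 20 alternatives, this comparison among them, the lowest log2 fold changes were 1.85 for Cyp4b1, 1.99 for Tbx3 and 2.55 for Prx. Against the general capillary comparison cells, Hilpda was lower at −0.62 (edgeR adjusted p = 0.0273), and Tmem100 was at −0.0057 (edgeR adjusted p = 0.983). Sema3c was lower at −2.89.

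VEGF receptors were unevenly expressed. Kdr, the main VEGF receptor of endothelium, was at 2970, 2635, 2737 and 2895 CPM in aerocytes of the controls, and 3419 and 2201 CPM in those labelled Zip8 knockout. The other endothelial cells had 463 to 572 CPM, and the log2 fold change was 2.15 (SE 0.16, edgeR adjusted p = 1.12e-39). Nrp1, a coreceptor of KDR, was at 3219 to 5194 CPM in aerocytes and 458 to 687 CPM in the others, with a log2 fold change of 2.47 (0.16). Flt1, the decoy receptor, was at 0.15 (SE 0.18, edgeR adjusted p = 0.587) and passed the threshold only after scaling to total UMIs, at 0.44 (adjusted p = 0.0380). Flt4, the receptor of VEGFC, was lower at −3.48, and Nrp2 was lower, with 2 UMIs in aerocytes.

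Of 13 genes of the VEGF and angiopoietin pathway tested, 2 were higher and 9 lower. The median was −3.48, or −1.95 with 3 genes at 0 set to their bounds. The ligand genes Vegfc, Pgf and Angpt2 had no UMI in aerocytes and were at least 18.4-fold, 7.25-fold and 3.86-fold lower. The receptor Tie1 was lower at −1.06. Tek was lower too, at 456 ± 72.3 CPM (SD, n = 6) in the other endothelial cells and with 4 UMIs in aerocytes, all in the first library labelled Zip8 knockout, and its fitted value of −5.38 became −11.8 without that library, where aerocytes had no UMI. Vegfa was at 1458, 0, 0 and 0 CPM in aerocytes of the controls, and 11.6 and 0 CPM in those labelled Zip8 knockout, and 82 of its 83 UMIs were in the cell of control 1 with AEC1 markers. Its log2 fold change was −0.84 (edgeR adjusted p = 0.0127) and −5.78 without control 1. Without control 2, 3 or 4 or either library labelled Zip8 knockout it was −0.32 to −0.64, with adjusted p-values of 0.118 to 0.496. Vegfb was at −1.53 (edgeR adjusted p = 0.0819).

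Genes of the other vessels were mostly lower, which is a description. The rule placed every cell with 3 or more Vwf UMIs or with Prox1 among the other endothelial cells. Genes that go with Vwf or Prox1 thus had to be lower in aerocytes. Of 11 arterial genes tested, 10 were lower and 1 was higher, and the median was −8.12, or −3.39 with 6 genes at 0 set to their bounds. Mgp, an inhibitor of calcification made in arteries and fibroblasts, was at 233 ± 241 CPM (SD, n = 6) in aerocytes and 3208 ± 1067 CPM in the others. The higher gene was Stmn2, a regulator of microtubules, at 1.09 (SE 0.18). All 10 venous genes tested were lower, with a median of −9.98, or −4.32 with 6 genes at 0 set to their bounds. Vcam1, the adhesion receptor for leukocytes, had 1 UMI in aerocytes and 1058 ± 344 CPM in the others. Nr2f2, which specifies veins, had 4 UMIs in aerocytes. Of 8 lymphatic genes, 7 were lower (median, −4.92), and without the 3 cells that stood apart all 8 were lower and 4 of the 8 had no UMI. The gene that changed its call was Pdpn, at −0.60 (edgeR adjusted p = 0.138) with these cells. Lyve1, the hyaluronan receptor, was at 141 ± 184 CPM against 1772 ± 418 CPM.

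Pan-endothelial genes had mixed directions. Of 14 tested, 6 were higher and 3 lower, with a median of 0.37. Ramp2, which turns the calcitonin receptor-like receptor CALCRL into a receptor of adrenomedullin, was higher at 1.48 (SE 0.15), with 4340, 6676, 6065 and 5979 CPM in aerocytes of the controls and 5360 and 8512 CPM in those labelled Zip8 knockout. Calcrl was higher at 0.84. Icam2, an adhesion molecule, was higher at 2.27 (0.16) and Ecscr at 1.43.

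Of 17 BMP and TGF-β genes tested, 4 were higher and 6 lower, with a median of −0.12. Acvrl1, the endothelial receptor of BMP9, was higher at 1.63 (SE 0.16), at 2266 ± 369 CPM (SD, n = 6) in aerocytes, and the target gene Id1 was higher at 0.68 (0.16). Of 8 Notch genes tested, 4 were lower and none higher (median, −1.0), among them Notch1 at −1.13 (0.24).

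Of 11 junction genes tested, 4 were higher and 3 lower (median, 0.48). Pcdh1, a protocadherin, was higher at 3.30 (SE 0.20) and Esam at 1.21. Of 10 genes of caveolae and pore diaphragms, 2 were higher and 5 lower (median, −0.81), whereas against the general capillary comparison cells 4 were higher and 2 lower of 7 tested. Cav1, the main caveolin, was at −0.22 (0.17, edgeR adjusted p = 0.379), whereas Cav2 was higher at 1.10 (0.18) and Ehd4, a membrane-bending ATPase, at 0.98 (0.16). Of 8 genes of carbonic anhydrases and water or ion transport, 4 were lower (median, −0.99). The water channel Aqp1 was lower at −0.90 (0.16), with 1158 ± 246 CPM in aerocytes and 1732 ± 227 CPM in the others (SD, n = 6).

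Of 9 leukocyte adhesion genes tested, 6 were higher and 3 lower (median, 1.36). Cd34, a sialomucin, was higher at 2.68 (SE 0.18), Cd47, the signal against phagocytosis, at 1.40 (0.16) and Icam1 at 0.94 (0.19). Of 10 shear stress and clotting genes tested, 3 were higher and 4 lower (median, 0.02). Thrombomodulin (Thbd) was higher at 0.85 (0.17), and the shear-responsive factor Klf2 was at −0.15 (0.15, edgeR adjusted p = 0.525). Of 6 prostaglandin genes, 2 were higher, Hpgd and the prostaglandin transporter gene Slco2a1 (0.89), and 4 lower (median, −2.09). Against the general capillary comparison cells, 2 prostaglandin genes were tested and neither passed (Slco2a1 at 0.08, edgeR adjusted p = 0.717), and of 4 shear stress and clotting genes 1 was higher (Klf4 at 0.48, edgeR adjusted p = 0.0186) and none lower.

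All 5 MHC class II genes tested were lower in aerocytes (median, −4.12, or −3.72 with 1 gene at its bound). MHC class I genes, which present peptides to CD8+ T cells, were higher for 6 of 16 tested and lower for none (median, 0.40). Against the general capillary comparison cells, 2 MHC class I genes were higher and 3 lower of 11 tested, near the shares of 22% and 27.8% over all genes tested there. Of 19 interferon response genes, 3 were higher and 6 lower (median, −0.05). Without the 3 cells that stood apart 1 of 20 tested was higher, Rtp4, since Ifit1 turned from 1.27 to −0.25 and Ifit3 from 1.31 to −0.16, and neither of these passed any longer. Ifitm3, an antiviral membrane protein, was lower at −2.59 (SE 0.18). Of 14 p53 targets, 3 were higher and 1 lower (median, 0.42), with the cell cycle inhibitor gene Cdkn1a at 1.60 (0.20) and Phlda3 at 1.91 (0.22). Of 19 immediate-early and heat shock genes, 3 were higher and 11 lower (median, −0.66). The median mitochondrial share of UMIs was 2.78, 4.25, 4.32, 3.44, 4.73 and 4.22% in aerocytes and 5.44, 5.60, 6.25, 5.78, 5.50 and 6.15% in the other endothelial cells of the 6 libraries, lower in aerocytes in each, and its part was not tested. The small heat shock gene Hspb1 was higher at 1.93 (0.16). Against the general capillary comparison cells 2 of these genes were higher and none lower of 13 tested. Of 11 proliferation genes 9 had no UMI, Mki67 among them, and neither of the 2 tested passed (median, −0.09). None of 3 sirtuins tested passed (median, 0.44). Xist had no UMI in aerocytes, and each of the 4 Y-linked genes had at least 1.

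Aerocytes also had RNA of some AEC1 markers. All 4 AEC1 markers tested were higher (median, 2.68). Without the 3 cells that stood apart, Hopx and Gprc5a were higher and Ager was lower of 3 tested. Hopx, a homeodomain protein, was at 3166, 1766, 1617 and 1474 CPM in aerocytes of the controls, and 1167 and 1246 CPM in those labelled Zip8 knockout, against 19.7 to 42.4 CPM in the other endothelial cells. Its log2 fold change was 5.49 (SE 0.20), and it was found in 71 of 79 aerocytes and, at 1000 UMIs per cell, in 63.3% of aerocytes and 3.92% of AEC2s. Every library was high, controls 2 to 4 included. Ager, in contrast, was at 5282, 0, 0 and 27.1 CPM in the controls, and 23.1 and 0 CPM in the others. Of its 301 UMIs, 297 were in 1 cell of control 1. The 10 AEC1 markers summed to 14104 CPM in control 1 and to 1363 to 1886 CPM in the other libraries, and without the cells with AEC1 or lymphatic markers 3 of the 10 had no UMI.

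Slc39a8 (chr3:135825279-135888572 of mm10, plus strand), the gene targeted in the mice, was at 213, 0, 0 and 0 CPM in aerocytes of the controls, and 0 and 0 CPM in those labelled Zip8 knockout. All 12 UMIs were in the cell of control 1 with AEC1 markers. The other 78 aerocytes had none. Over the 77 that remain when the cell with lymphatic markers is left out too, a count of 0 allows a share of up to 3.90% of cells with a UMI. That 0 was set by leaving out the cell of control 1 that held all 12. The limit covers detection at this depth and not expression. The difference between the group means was −53.4 CPM (exact two-sided permutation test, p = 1, n = 4 and 2), and it was 0 without that cell. The other endothelial cells had 24.5, 18.4, 9.52 and 13.8 CPM in the controls and 8.54 and 8.00 CPM in those labelled Zip8 knockout.

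The target gene was also read in AEC2s, the cells in which the Cre acts, selected by Lamp3, Slc34a2 and Sftpc. It was at 222, 223, 190 and 213 CPM in the controls, and 200.2 and 216 CPM in the libraries labelled Zip8 knockout, and the groups overlapped (difference −3.65 CPM, control SD 15.4, exact two-sided permutation test, p = 0.867). The UMIs count 3′ ends, and the deleted part of the gene was not given in the sources used here, so this level does not check the labels. Of the other zinc importers, 6 were tested between aerocytes and the other endothelial cells, and Slc39a6 was higher at 1.56 (SE 0.41). Of 7 zinc exporters and metallothioneins, 1 was higher, Slc30a1 at 1.09 (0.33), and 1 was lower (median, −0.87, and 0.31 for the importers). Over all genes tested, 8.59% were higher and 19% lower.

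Next, the groups were compared within aerocytes. Of 937 genes tested between the 2 libraries labelled Zip8 knockout and the 4 controls, none (0%) passed an adjusted p of 0.05 in edgeR's quasi-likelihood test or in DESeq2. At an unadjusted p of 0.05, edgeR had 51 genes (5.44%), 26 higher and 25 lower, and DESeq2 had 24. Without the 3 cells that stood apart, which were all in controls, 4 of 793 genes passed, all higher: H2-Q7 (1.30, SE 0.24, edgeR adjusted p = 0.00142), H2-K1 (0.86, SE 0.21, adjusted p = 0.0413), H2-Q6 (1.99, SE 0.49, adjusted p = 0.0413) and the interferon-induced Bst2 (1.28, SE 0.32, adjusted p = 0.0413). Without control 4, H2-Q7 and Bst2 passed. The cell with interferon response genes was singled out by genes related to these, so its removal is no independent support. The groups did not overlap in 60 genes that were higher (6.4%) and 60 that were lower (6.4%) in the libraries labelled Zip8 knockout.

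No MHC class I gene passed with all aerocytes. Of 13 tested, 12 had a positive log2 fold change, 11 of them with an unadjusted p under 0.05, where the background of genes with a positive change was 2.77%. The groups did not overlap in 10. The count of 11 fell to 6 of 11 tested without the first and to 7 of 14 without the second library labelled Zip8 knockout. The median log2 fold change was 0.89, against −0.0032 over all genes tested. This pattern in endothelial cells was known when the list was chosen, so that it is a description.

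H2-K1, a classical heavy chain, was at 2543, 3174, 3639 and 3192 CPM in the controls, and 5521 and 5979 CPM in the libraries labelled Zip8 knockout. Its log2 fold change was 0.89 (SE 0.21, edgeR adjusted p = 0.218), and both libraries labelled Zip8 knockout were above the 4 controls. H2-D1, the other classical chain, was at 3948, 5629, 6314 and 5532 CPM in the controls, and 7635 and 9633 CPM in the others. The groups did not overlap, with a log2 fold change of 0.71 (0.22, edgeR adjusted p = 0.599). B2m, the light chain, was at 3468, 3712, 3919 and 4247 CPM in the controls, and 6769 and 5440 CPM in the others (log2 fold change 0.69, SE 0.20). H2-T23, a ligand of natural killer cell receptors, was at 907, 1078, 1213 and 974 CPM in the controls, and 2172 and 1412 CPM in the others (0.86, 0.24). With 1 library left out, the log2 fold change of H2-T23 was 0.48 to 1.10. The proteasome subunit gene Psmb9 and the transporter gene Tap2 had log2 fold changes of 1.41 and 1.10, and Tapbp and Psmb10 of 0.07 and −0.03.

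H2-Q7 was at 444.6, 479, 435.4 and 743.9 CPM in the controls, and 1282 and 1370 CPM in the libraries labelled Zip8 knockout (log2 fold change 1.28, SE 0.26, edgeR adjusted p = 0.096). It passed the threshold in 5 of 19 alternatives, with adjusted p-values of 0.00142 without the 3 cells that stood apart, 0.0106 without control 1, 0.0018 without control 4, 0.00838 with at least 2 UMIs of both markers and 0.00488 without the cells with AEC1 or lymphatic markers. H2-Q4, H2-Q6 and H2-Q7 are near-identical copies, and reads may have been split among them, so that the level of each is uncertain.

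**Figure D3:**
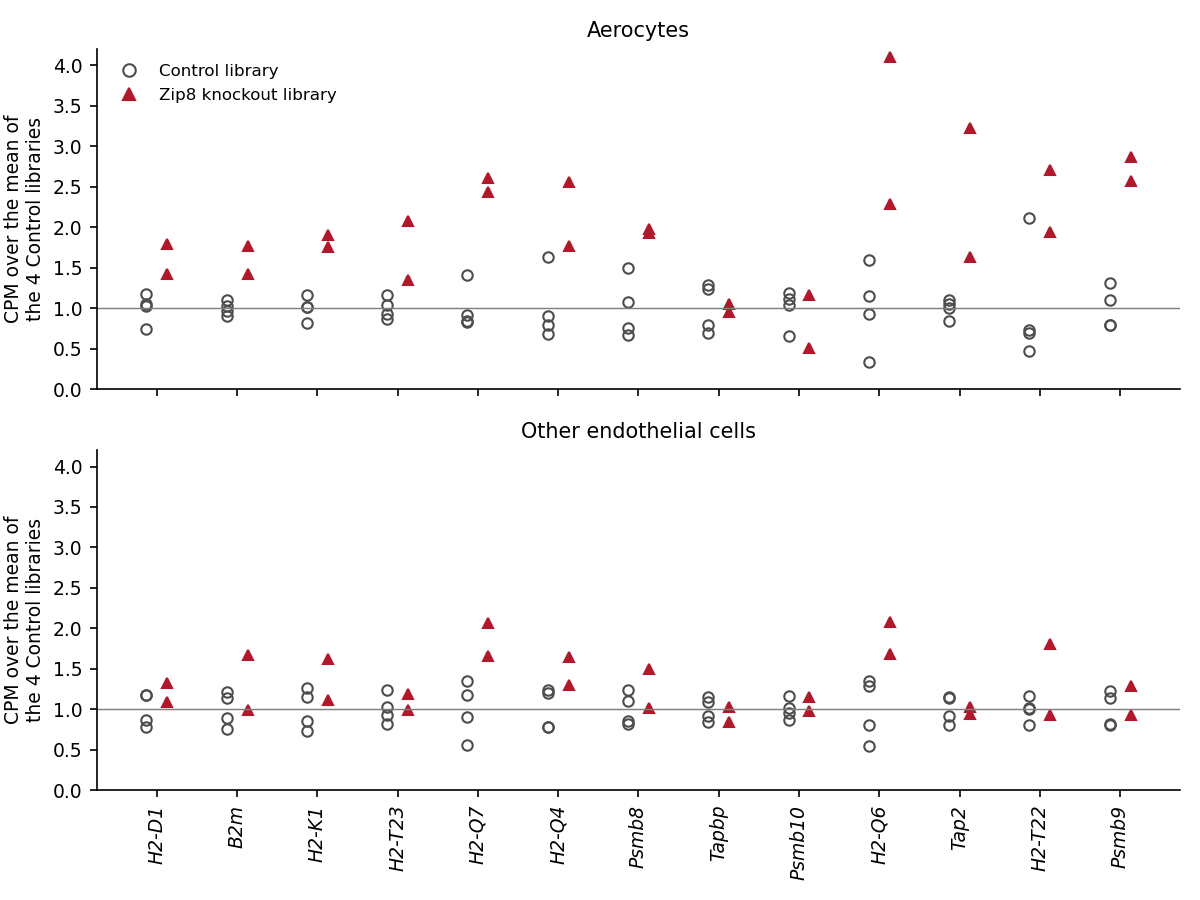
CPM of the 13 MHC class I genes tested in aerocytes, divided by the mean of the 4 control libraries (y axis), in aerocytes (upper panel) and in the other endothelial cells (lower panel), with circles for controls and triangles for libraries labelled Zip8 knockout. In aerocytes both triangles lie above every circle for 10 of the 13 genes, and the line at 1 marks the control mean.

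The summed level of the 17 MHC class I genes was 12930.4, 16197, 17572 and 17070.2 CPM in aerocytes of the controls and 26740.4 and 27571 CPM in those labelled Zip8 knockout. In the other endothelial cells the sums were 7069.6, 6326, 9431 and 9837 CPM in the controls and 12158 and 8876 CPM in the others, where the groups overlapped. Of 16 genes tested there, 4 had an unadjusted p under 0.05, where the background was 4.16% for positive and 3.59% for negative changes, and the median log2 fold change was 0.33. Without the first library labelled Zip8 knockout none did (median, 0.083), without the second 10 of 17 did (median, 0.60), and without control 4 it was 7 of 16. The share of all genes without overlap of the groups in these cells was 9.11% above and 8.03% below the controls. The difference of this effect between the classes was tested gene by gene, and no MHC class I gene passed (H2-K1 0.42, 95% interval −0.22 to 1.06, edgeR adjusted p = 1), which does not show that the classes responded alike. The airway marker sums given above overlapped between the groups, at 6939 to 12752 CPM in aerocytes of the controls, and 12208 and 15259 CPM in the others, and their part was not tested.

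No gene of the other lists passed with all aerocytes. Of 2 interferon response genes tested in aerocytes, Bst2, which encodes an interferon-induced membrane protein, had a log2 fold change of 0.99 (SE 0.41, edgeR unadjusted p = 0.0256). Among the other endothelial cells, 20 of 21 genes tested had a positive change (median, 0.49). Of these, 8 had an unadjusted p under 0.05 in edgeR, where the background of genes with a positive change was 4.16%. The 22 genes of this list summed to 1245, 1407, 933 and 5884 CPM in aerocytes of the controls and to 3373 and 2616 CPM in those labelled Zip8 knockout. Control 4, the highest, held the cell with 288 such UMIs, and the other 3 controls lay below both libraries labelled Zip8 knockout. With all aerocytes the groups overlapped (exact two-sided permutation test, p = 0.867). Without the 3 cells that stood apart the sums were 1479, 1407, 933 and 1984 CPM in the controls, so that all 4 lay below. The cell of control 4 with 288 such UMIs was singled out by this same list, so its removal is no independent support. Of 15 immediate-early and heat shock genes, 4 had a negative and none a positive change at an unadjusted p of 0.05 (median, −0.45), where the background of genes with a negative change was 2.67%. Without the first library labelled Zip8 knockout 1 of 15 had such a p (median, −0.040), and in DESeq2 it was 1 of 15. Egr1, an immediate-early transcription factor, was at 764.8, 538.9, 715.3 and 730.4 CPM in the controls, and 335.0 and 332.2 CPM in the libraries labelled Zip8 knockout (log2 fold change −1.06, SE 0.30, edgeR adjusted p = 0.526). Of the 15 genes, Egr1 was the 1 whose groups did not overlap, near the share of 6.4% over all genes tested. Klf4, a factor of quiescent endothelium from the shear stress list, was at 1494, 2096, 2333 and 2097 CPM in the controls, and 1109 and 1204 CPM in the others (−0.78, 0.25, edgeR adjusted p = 0.599). It was the only gene of the 5 tested in its list whose groups did not overlap, where the share over all genes tested was 6.4%. All 6 caveolae and pore diaphragm genes tested had a negative change (median, −0.34), as had 474 of the 937 genes tested. The groups did not overlap in 3 of these 6, and 1 of the 6 had an unadjusted p under 0.05 in edgeR. In the other endothelial cells, Egr1 had a log2 fold change of 0.39 and Klf4 of −0.66, and the difference between the classes for Egr1 was −1.45 (edgeR adjusted p = 0.299).

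The aerocyte genes themselves had a median log2 fold change of 0.13 between the groups. Of 18 tested, 2 had an unadjusted p under 0.05, Apln at 0.66 (SE 0.31) and Fibin at 0.74 (0.30), with edgeR adjusted p-values of 0.853 and 0.753, where the background of genes with a positive change was 2.77%. The groups overlapped in both. Of the 18 genes, 15 had a positive change, as had 463 of the 937 genes tested. In 2 other genes of the list the groups did not overlap, both higher, where the share over all genes tested was 6.4%. In Fibin, the first library labelled Zip8 knockout, at 1744 CPM, lay within the controls, at 1393 to 1868 CPM, and the second was at 4069 CPM. In Apln, control 1, at 445 CPM, lay between the libraries labelled Zip8 knockout, at 415 and 589 CPM. Of the VEGF and angiopoietin genes, 4 were tested and none passed (median, 0.08), and of 9 BMP and TGF-β genes none passed (median, −0.11).

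In the other endothelial cells, 1 of 10038 genes passed between the groups (0.00996%), and 778 had an unadjusted p under 0.05 (7.75%). It was Nts, which encodes neurotensin, at −2.23 (edgeR adjusted p = 0.0296), and it had no UMI in aerocytes. Without control 1 (−2.16, edgeR adjusted p = 0.0969) or control 3 (−2.27, adjusted p = 0.124), the value was of like size and did not pass. It was −2.02 without the first library labelled Zip8 knockout. With no filter on low counts 79 genes passed in these cells, and with the replicate number as a block 175 did.

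The genotype difference in aerocytes minus that in the other endothelial cells passed for 6 of 8639 genes (0.0695%), all negative, whereas DESeq2 called none. At an unadjusted p of 0.05 edgeR had 294 genes (3.4%), 1.55% with a positive and 1.85% with a negative value. The 6 genes were Ccl21a, Pdpn, Cxcl10, Sparc, Ager and Vegfa, which were carried by the 3 cells that stood apart. Of the aerocyte UMIs, 72 of 75 for Ccl21a, 115 of 116 for Cxcl10, 297 of 301 for Ager, 82 of 83 for Vegfa, 74 of 87 for Sparc and 30 of 33 for Pdpn were in 1 cell each. Without the cells with AEC1 or lymphatic markers Cxcl10 passed, without all 3 cells none did, and without control 4 the fitted value of Cxcl10 turned from −6.61 to 3.34. Ccl21a has near-identical copies in the genome, and its counts are uncertain.

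The share of aerocytes among endothelial cells was 3.80, 1.29, 2.09 and 3.33% in the controls and 8.52 and 3.14% in the libraries labelled Zip8 knockout. The exact (Clopper-Pearson) 95% confidence intervals, which cover counting error only, were 1.98 to 6.54%, 0.522 to 2.65%, 0.844 to 4.26%, 2.05 to 5.10%, 5.64 to 12.2% and 1.27 to 6.36% in the same order. The first library labelled Zip8 knockout was above all others, and the second lay among the controls. The group means were 2.63% ± 1.15 (SD, n = 4) and 5.83% (n = 2), a difference of 3.20 percentage points (exact two-sided permutation test, p = 0.2). The smallest p that 15 splits can give is 0.0667. Without the first library labelled Zip8 knockout the difference was 0.510 points. The cells had been enriched as CD45-, and the part of this step in the share was not tested.

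**Figure D4:**
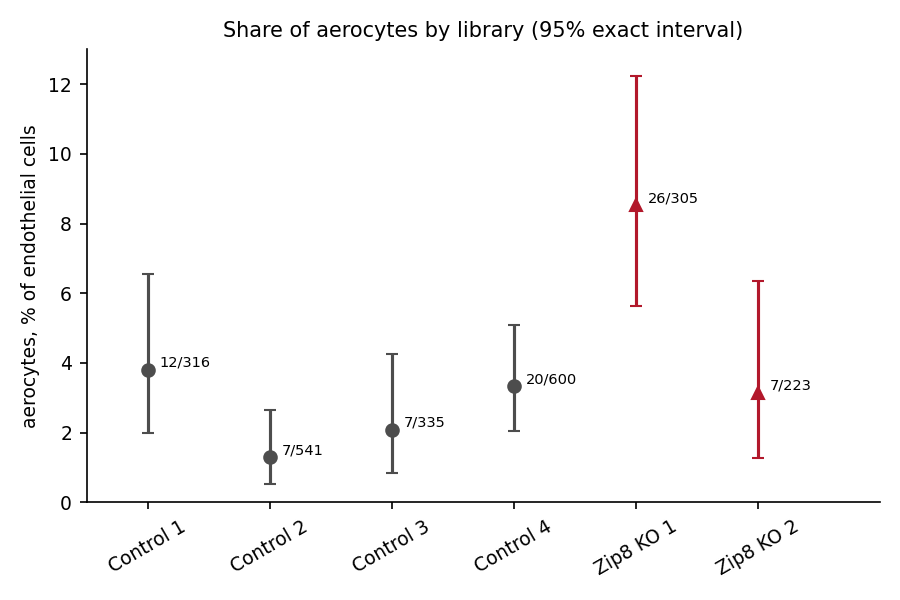
Percent of endothelial cells that were aerocytes in each of the 6 libraries (points), with exact 95% confidence intervals (bars). The first library labelled Zip8 knockout is at 8.52%, and the other 5 lie between 1.29% and 3.80%.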

How the data were processed

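The deposited values were counts made by the authors: UMIs per gene and barcode from Cell Ranger (3.1.0 per the file headers, whereas the labels name a v2 kit), aligned to mm10, for 27998 genes and before the cell filters that the authors applied in Seurat. Each of the 6 libraries (4 controls, 2 labelled Zip8 knockout) had its own count matrix. From these, cells were kept and named by the limits given in the opening, and UMIs were summed per library. Likely doublets were called by comparison with simulated doublets (30 components, 30 neighbors) at 0.8% per 1000 barcodes, and they were kept except in an alternative. Levels are CPM over all UMIs of the summed cells.

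Sums were tested with edgeR 4.0.16 (R 4.3.3, quasi-likelihood test, TMM factors, filterByExpr, two-sided, Benjamini-Hochberg adjustment over all genes tested, threshold 0.05). Aerocytes were compared with other endothelial cells with the library as a block, and genotype was tested in each class and as a difference between the classes. Single values were compared by exact two-sided permutation over 15 splits. Cells were thinned with Python 3.11.15 to 1000 UMIs for shares of cells and to 2000 UMIs as an alternative. The fits were tested on simulated data with known changes.

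Genes named for size were the 8 highest and 8 lowest fold changes among those past the threshold, at 50 CPM or more in the higher class and changed the same way in all 6 libraries, and up to 5 in each direction for each genotype test. The other named genes came from 34 lists (396 genes). The aerocyte rule, the lists and the tests were chosen with earlier results of these data known. Alternatives were other scaling (total UMIs, RLE factors), DESeq2 1.42.0, no filter on low counts, stricter and looser cell limits, doublets or shared barcodes left out, at least 2 UMIs of both markers, general capillary comparison cells, thinning, no library block, the replicate number as a block and each library left out. Leaving out the cells with AEC1 or lymphatic markers (at least 5 UMIs), alone or with the cell that had at least 100 UMIs of interferon response genes, was chosen after seeing the data.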

Additional observations from a re-analysis of the deposited data

Results flagged for a closer look

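Among the 4 controls, 1 library lay far from the other 3 in 10 of 47 values tested in aerocytes (genes with at least 10 UMIs; a gap over 0.829 of the range, Dixon's 95% value). Chance gives about 1 in 20 for values that are independent and not chosen for such a gap. Here 6 of the 10 genes were named because of a genotype difference that rests mostly on 1 control cell each, and 5 share 1 cell of control 1, so that the count of 10 cannot be set against chance. In control 1 these were Vegfa at 1458 CPM, Slc39a8 at 213 CPM, Ager at 5282 CPM, Sparc at 1387 CPM and Pdpn at 534 CPM, and most UMIs of each were in the cell with AEC1 markers. In control 4 they were Cxcl10 at 1556 CPM and Ccl21a at 974 CPM, each mostly in 1 cell, and H2-Q7 at 744 CPM. In control 3 they were Clu at 1306 CPM and Flt1 at 1337 CPM.

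For 6 genes the genotype difference in aerocytes differed from that in the other endothelial cells in edgeR's test of the difference itself. The fitted log2 values were −5.17 for Ccl21a (adjusted p = 2.87e-05), −9.56 for Pdpn (0.0271), −6.61 for Cxcl10 (1.29e-06), −3.17 for Sparc (0.00618), −3.68 for Ager (0.0480) and −4.34 for Vegfa (0.0271). Ager, Vegfa, Pdpn, Cxcl10 and Ccl21a were low or at 0 in aerocytes labelled Zip8 knockout, so their fitted values depend on the prior count and are no bounds. Without control 4, Ccl21a was at −1.38, and without control 1, Sparc was at −0.052. DESeq2 called none of the 6.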

How the results depend on the processing

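Against the other endothelial cells, 1870 genes were called in aerocytes, 443 against the general capillary comparison cells, 1038 after thinning to 2000 UMIs, and 1636 to 1792 with 1 library left out. Of 995 alternative values for 51 genes named in this comparison, 967 kept their side of the threshold. A further 23 lost the call, mostly Sema3c and Vegfa, 2 gained it and 3 values of called genes changed sign. The last were Hilpda (−0.62) and Tmem100 (−0.0057) against the general capillary comparison cells and Vegfa without the library block (0.19). Flt1, which was not called, fell as low as −0.042 among values that kept their side of the threshold. Against the general capillary comparison cells, 4 arterial, 0 venous and 3 lymphatic genes were called lower, of 5, 0 and 3 tested.

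The genotype comparison in aerocytes called 0 genes, 1 with at least 2 UMIs of both markers or without the cells with AEC1 or lymphatic markers, 4 without the 3 cells that stood apart, 16 with no filter on low counts, all lower, and 0 to 2 with 1 library left out (1 without control 1 and 2 without control 4). In the other endothelial cells it called 1 gene, 5 with DESeq2, 79 with no filter on low counts, 4 after thinning and 0 to 17 with 1 library left out (0 without control 1 or 3, 2 without control 4 and 17 without the second library labelled Zip8 knockout). The difference between the classes called 6 genes, 0 with DESeq2 or without the 3 cells that stood apart, 3 with no filter or with stricter cell limits, 1 after thinning, with at least 2 UMIs of both markers or without the cells with AEC1 or lymphatic markers, and 0 to 11 with 1 library left out (2 without control 1, 11 without control 3, 0 and 3 without the first and second library labelled Zip8 knockout). The fitted difference turned positive for Ager (8.71, 7.28 and 0.87) and Vegfa (5.95, 5.81 and 5.89) with at least 2 UMIs of both markers, without the cells with AEC1 or lymphatic markers and without control 1, and for Cxcl10 without control 4 (3.34). Without the 3 cells that stood apart it was 7.28 for Ager, 5.80 for Vegfa and 3.87 for Cxcl10. With 1 library left out it was −10.9 to 0.87 for Ager, −10.3 to 5.89 for Vegfa, −12.9 to 3.34 for Cxcl10, −10.5 to −1.38 for Ccl21a, −3.87 to −0.052 for Sparc and −9.92 to −7.02 for Pdpn. The immediate-early median in the other endothelial cells was 0.060, turned to −0.026 without control 1 and was at most 0.27 with 1 library left out. The median of MHC class I genes in aerocytes was 0.82 to 0.97 over 19 alternatives, and in the other endothelial cells it was 0.083 to 0.60. The Slc39a8 difference was 0 with at least 2 UMIs of both markers, without the cells with AEC1 or lymphatic markers, without the 3 cells that stood apart or without control 1, and −71.1 to 0 with 1 library left out. The share difference was 0.510 to 5.90 points with 1 library left out. Where no cause is shown by the setting itself, the cause was not tested.

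Libraries 1 and 2 of both groups share only a number. Deviations of same-numbered libraries correlated at 0.0323 and 0.0984 in aerocytes and at 0.0403 and 0.124 in the other endothelial cells. With the replicate number as a block, 0 genes were called in aerocytes and 175 in the other endothelial cells (95 higher, 80 lower). Of 16 MHC class I genes in the latter, 11 then had an unadjusted p under 0.05 (median, 0.53). In the genotype comparison in aerocytes, 937 genes passed the filter on low counts and the smallest library held 7 cells. On simulated data of this size, that fit recovered 43 of 100 genes changed by log2 1 and 90 of 100 changed by log2 2, with 2 false calls. The fit of the difference between the classes recovered 0 and 12 of 100.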
